A study of Mus musculus with 43 samples.

Results

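Open chromatin in gene deserts was examined in neurons of the mouse frontal cortex after environmental enrichment (EE) or standard housing (SH). A gene desert region was defined as an autosomal region of an ATAC-seq count table that is under 3 kb wide, overlaps no gene span of the RNA count table and lies more than 100 kb from the nearest gene start. By this rule, which uses positions only, 4760 of 165184 regions were desert regions in the female table and 7633 of 192919 in the male table. No sequencing value entered this choice among the regions of a table. The region set of each sex was made by the submitters, and how its regions were merged is not given. Whether the making of the sets favoured regions higher in either housing group was not tested. Differences between housing groups in desert regions are therefore given for the regions in these sets.

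ATAC-seq measures open chromatin: a transposase inserts adapters where DNA is not packed tightly by nucleosomes, and sites with many insertions appear as regions of high count. Open sites far from any gene are mostly candidate enhancers, which can act on genes over long distances through chromatin looping, or sites bound by structural proteins such as CTCF. In the brain, long gene-poor stretches often flank genes of development, cell adhesion and neuronal wiring. Neuronal activity is known to change the accessibility of many distal enhancers.

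The mice were wildtype Swiss Webster animals, weaned at postnatal day 25 and sampled at 2 months of age. SH cages held bedding and a nestlet. EE cages were larger and added a running wheel, a tube, more nesting material and a changing set of toys. Frontal cortices were fixed, and nuclei positive for the neuronal protein NeuN were sorted for ATAC-seq or nuclear RNA-seq. There were 3 EE and 3 SH libraries for female ATAC, 6 EE and 7 SH for male ATAC, and 6 EE and 6 SH for RNA in each sex. The labels name no individual animals, so p-values measure the spread between these libraries, which may be technical. Each sex has its own region set and its own run name, and the effects of sex and run cannot be told apart. Total counts ran from 19.1 to 26.3 M per female ATAC library, 27.7 to 73.8 M per male ATAC library, and 10.4 to 15.4 M per RNA library.

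The desert label depends on the annotation. The spans of the RNA table are Ensembl genes, and 588 of the 4760 female regions (12.4%) and 876 of the 7633 male regions (11.5%) lay inside a RefSeq gene span that the RNA table does not include. Most were long noncoding RNA genes (398 and 633 regions), and 174 and 214 regions lay in protein-coding genes. These were mainly far upstream parts of 3 neuronal genes on chromosome 16: Rbfox1, a neuronal splicing regulator, with 58 female and 62 male regions, and the axon guidance receptors Robo2 (39 and 56) and Robo1 (22 and 52). For Robo2, the RNA table gives a gene end at 74411825 on the minus strand, while the RefSeq span reaches 75447443.

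A few desert regions sat on such a RefSeq start itself. RefSeq promoter windows (300 bases, GRCm38.p6, the assembly that mm10 names) were overlapped by 31 female and 51 male desert regions, 28 and 51 of the windows being of long noncoding RNAs. The windows that lay wholly inside a desert region in both tables with the 3 highest mean levels in CPM per kb, plus the window of the other protein-coding gene, Fgf12, an intracellular regulator of sodium channels, are shown because their desert regions cover an annotated RefSeq start. Each is written 5′ to 3′ on the strand of its gene and holds only bases before the RefSeq gene span, and capitals mark a match to 1 of 10 motifs searched on both strands.
Gm40750, chr10:98806887-98807136, plus strand: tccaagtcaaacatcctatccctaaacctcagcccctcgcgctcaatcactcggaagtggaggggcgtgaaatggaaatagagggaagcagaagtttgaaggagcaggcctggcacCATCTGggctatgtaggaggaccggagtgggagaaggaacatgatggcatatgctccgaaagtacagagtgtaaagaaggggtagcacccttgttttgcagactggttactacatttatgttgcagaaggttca
Robo2, chr16:75447444-75447543, minus strand: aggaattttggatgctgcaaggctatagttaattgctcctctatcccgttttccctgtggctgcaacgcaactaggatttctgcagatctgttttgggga
Gm6936, chr16:49980210-49980459, plus strand: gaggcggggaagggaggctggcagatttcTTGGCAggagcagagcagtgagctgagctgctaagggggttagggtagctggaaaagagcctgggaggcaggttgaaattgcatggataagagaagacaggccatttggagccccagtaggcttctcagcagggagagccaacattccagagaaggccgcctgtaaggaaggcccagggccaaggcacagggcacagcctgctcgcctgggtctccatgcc
Fgf12, chr16:28753244-28753493, minus strand: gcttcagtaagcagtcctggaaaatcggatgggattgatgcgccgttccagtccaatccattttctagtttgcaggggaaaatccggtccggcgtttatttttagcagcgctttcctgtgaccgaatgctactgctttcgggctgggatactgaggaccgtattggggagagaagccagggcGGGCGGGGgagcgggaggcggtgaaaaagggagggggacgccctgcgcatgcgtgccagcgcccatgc
The capitals are a CAGATG E-box (read as CATCTG) in Gm40750, the NFI motif TTGGCA in Gm6936 and the KLF motif GGGCGGGG in Fgf12. The E-box was found in 12 of the 55 windows on desert regions (21.8%) and in 14.5% of all 31365 autosomal windows, the NFI motif in 10 (18.2%) and 12.2%, and the GC-rich KLF motif in 1 (1.82%) and 16.3%, all over the 250 bases before the start. The median GC content of the desert windows was 44.8%, against 48.4% for all long noncoding RNA windows and 52.4% for all windows. The CTCF core AGNGGGCGC was in 0 of the 55 and 2.53% of all windows.

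The libraries carried the neuronal label in their RNA. The 10 neuronal marker genes summed to between 7335 and 8671 CPM (counts scaled to a common library total) in every RNA library, against 97.5 to 338 CPM for 9 oligodendrocyte markers, 32.1 to 164 for 8 astrocyte markers and 4.94 to 22.5 for 7 microglial markers. The 8 vascular markers summed to 10.3 to 69.9 CPM. In the ATAC tables, 8 of 10 neuronal markers in females and 7 of 10 in males had an open region within 1 kb of their start. So did 5 of 8 astrocyte markers in each sex, 3 and 5 of 9 oligodendrocyte markers, 0 and 1 of 7 microglial markers, and 1 and 5 of 8 vascular markers.

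Desert regions were small, scattered and of ordinary height. Their median width was 415 bp in the female table and 725 bp in the male table, where all regions are wider (medians of 445 and 821 bp). The median distance to a gene start was 154 kb in females and 156 kb in males, and 1509 female and 2447 male regions lay over 200 kb away. They fell into 1022 gene-free stretches in females and 1152 in males, with a median of 3 and 4 regions per stretch. Chromosomes 16 and 18 were the richest: desert regions made up 9.17% and 8.54% of all female regions there, against 0.925% on chromosome 7. Chromosomes 15, 17 and 19 followed with 4.86, 4.63 and 4.06%. Of the 563 female desert regions on chromosome 16, RefSeq places 58, 39 and 22 inside Rbfox1, Robo2 and Robo1. The part of the annotation in these shares was not tested.

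Their level in SH libraries, given per kb of region, was close to that of other distal regions. Median CPM per kb, scaled by total count, were 7.47 for female desert regions, 7.68 for intergenic regions 10 to 100 kb from a gene start, 6.96 inside genes and 9.43 at gene starts. In males the medians were 3.33 for deserts, 3.39 for intergenic regions at 10 to 100 kb, 2.86 inside genes and 4.47 at starts. The spread between SH libraries (median SD of log2 CPM) was 0.26 for female desert regions and 0.19 for regions at gene starts, and 0.24 and 0.19 in males.

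The 3 tallest desert regions per kb were very narrow. The tallest lay at chr6:9889946-9890115 in females, 283 kb from the start of Gm5110, and its counterpart at chr6:9889950-9890110 was also the tallest in males. It held 32.7, 30.0 and 26.1 CPM in the female EE libraries and 25.2, 36.6 and 28.2 CPM in the SH libraries, so the groups overlapped. Its mean level was 176 CPM per kb in females and 188 in males. The next female regions, near Efhb and C030010L15Rik, stood at 77.6 and 70.1 CPM per kb, and neither passed the test of housing (edgeR quasi-likelihood test, adjusted p = 0.936 and 0.969). The region near C030010L15Rik had the same coordinates in males, with 5.19 to 7.08 CPM in EE and 4.01 to 5.19 in SH (log2 fold change 0.42 ± 0.10, adjusted p = 0.904). The most remote region lay on chromosome 15 in the gene-free stretch before Fam135b, 1018 kb from the nearest gene start in both tables (chr15:70703952-70704046 in females), with log2 fold changes of 0.43 ± 0.32 (SE) in females and -0.14 ± 0.15 in males.

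None of the regions on these starts passed the test of housing. The Fgf12 region held 29.9 ± 0.893 CPM in female EE (SD, n = 3) and 32.3 ± 2.09 in SH (n = 3), with overlapping libraries (29.1 to 30.8 and 30.2 to 34.4). The Robo2 region held 9.32 ± 0.476 in EE and 7.97 ± 1.23 in SH in females, and 9.79 ± 0.566 (n = 6) and 9.81 ± 0.897 (n = 7) in males. The Gm40750 region held 20.8 ± 2.57 and 22.7 ± 2.81 CPM in females, and the Gm6936 region 7.70 ± 0.918 and 6.39 ± 0.934. Adjusted p-values in females ran from 0.739 for Gm6936 to 0.858 for Gm40750, and the median log2 fold change over the 31 female desert regions on a RefSeq window was 0.03.

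In females, desert regions took a larger share of the counts after enrichment. They held 2.17, 2.29 and 2.14% of the counts of the EE libraries and 2.04, 1.87 and 1.83% of those of the SH libraries, and the groups did not overlap. The means were 2.203 ± 0.0805% (SD, n = 3) and 1.91 ± 0.112% (n = 3), a difference of 0.289 percentage points. Intergenic regions 10 to 100 kb from a start also held more in every EE library, 12.2 to 12.8% against 11.4 to 11.97% in SH. Regions at gene starts held 26.0, 26.2 and 26.6% in EE and 25.9, 28.1 and 27.1% in SH, and SH replicate 2, with the highest of these, was also the shallowest library at 19.1 M counts. Depth leaned with housing too: EE replicates 1 to 3 had 23.6, 25.9 and 26.3 M counts, and SH replicates 23.8, 19.1 and 22.8 M. The deepest SH library, replicate 1, had the highest desert share in SH (2.04%). The part that depth or the balance between starts and distal regions has in the desert difference was not tested.

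Male libraries did not separate. Desert regions held 2.43 to 2.93% (median 2.76%, n = 6) of the counts in EE and 2.55 to 3.05% (median 2.59%, n = 7) in SH. The range within each male group was thus wider than the difference between the female means. The male library with the lowest desert share, EE replicate 3 (2.43%), had the highest share at gene starts (16.1%), and the male library with the highest desert share, SH replicate 6 (3.05%), had 14.7% at starts.

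**Figure D1:**
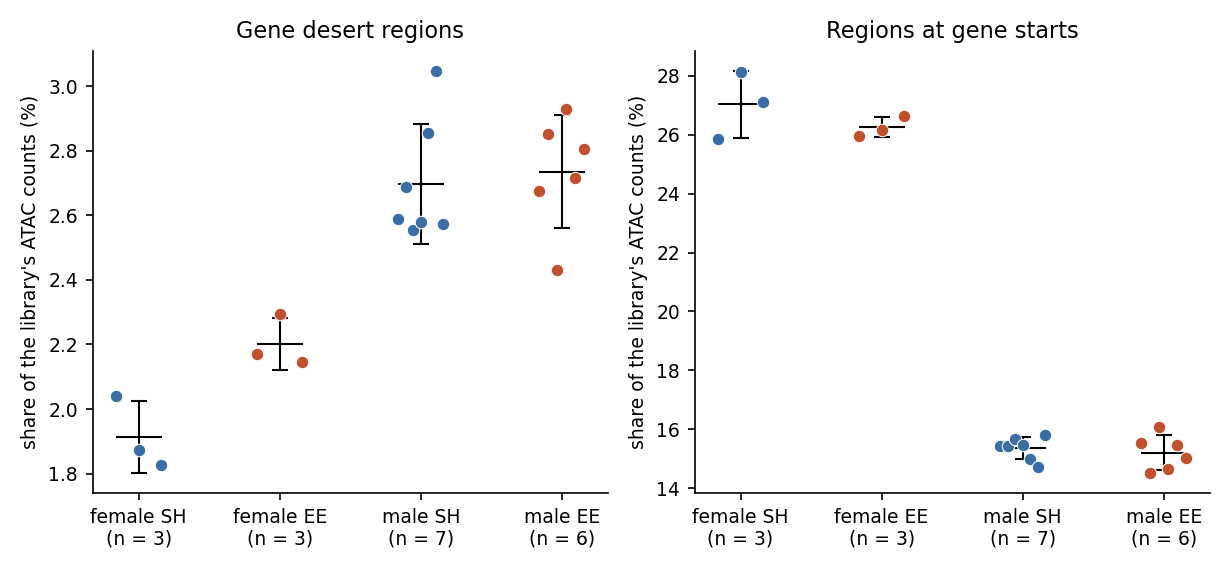
Share of each ATAC library's counts (%) in gene desert regions (left) and in regions within 1 kb of a gene start (right). Points are libraries, horizontal bars are group means and error bars are 1 SD. The 3 female EE libraries (2.14 to 2.29% in deserts) lie above the 3 female SH libraries (1.83 to 2.04%), and the male groups overlap.

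Single desert regions were called in females, all of them higher after enrichment. The quasi-likelihood test of edgeR, fitted over all 164926 female regions that passed the filter on low counts, called 10 of 4731 desert regions higher and 0 lower at an adjusted p under 0.05. Over the whole table, 57 regions were called higher (0.0346%) and 21 lower (0.0127%), and the 10 are 0.211% of the desert regions tested. Calls also leaned higher among the 25639 tested intergenic regions 10 to 100 kb from a start, with 27 higher and 2 lower. The other 29 desert regions did not pass the filter. Fold changes of the 10 ran from 1.44 to 2.86, adjusted p-values from 0.00516 to 0.0354 and widths from 271 to 2347 bp. In each of the 10, every EE library stood above every SH library.

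The largest difference was at chr13:82816541-82816984, 118 kb from the start of Mir3961 and 687 kb from Mef2c, which encodes an activity-dependent transcription factor of cortical neurons. It held 2.99, 3.33 and 3.62 CPM in EE and 1.42, 1.08 and 0.960 CPM in SH, a log2 fold change of 1.52 ± 0.28 (SE; adjusted p = 0.00516). These were 71 to 96 reads in EE libraries and 20 to 34 in SH libraries. The gap was as wide at chr4:93438657-93438928, 103 kb from Tusc1: 2.28, 2.83 and 3.28 CPM in EE stood against 0.917, 1.08 and 1.05 in SH, a log2 fold change of 1.46 ± 0.30. This region is the only one of the 10 inside a RefSeq gene, the noncoding Gm31828.

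A group of stronger regions rose by less. At chr1:94368923-94369517, 100 kb from Gm7895, EE libraries held 7.34, 6.58 and 5.92 CPM and SH libraries 2.88, 4.199 and 3.49, a log2 fold change of 0.92 ± 0.20. At chr12:95486248-95486915, whose nearest protein-coding start is Flrt2 at 205 kb, EE libraries held 8.68, 11.5 and 10.2 CPM and SH libraries 6.003, 6.19 and 5.58 (log2 fold change 0.78 ± 0.16). Flrt2 encodes a leucine-rich repeat adhesion protein that takes part in axon guidance and synapse formation. At chr3:16532987-16534076, 350 kb from Ythdf3, a reader of methylated adenosine in RNA, EE libraries held 15.1, 16.95 and 14.2 CPM and SH libraries 8.88, 10.6 and 9.51. At chr16:83110684-83111903, in a stretch whose nearest protein-coding start (Mrpl39, of the mitochondrial ribosome) is 1624 kb away, the values were 18.9, 18.8 and 20.3 CPM against 14.0, 11.4 and 11.5.

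The last 4 were the widest and held the most reads. At chr11:40889749-40892048, 134 kb from the cyclin gene Ccng1, EE libraries held 20.6, 24.0 and 25.3 CPM and SH libraries 17.3, 15.7 and 13.2. At chr12:7227714-7229448, 748 kb from Apob, an apolipoprotein gene of liver and gut, the values were 22.05, 20.1 and 21.4 against 14.8, 14.5 and 13.2 CPM. The other two lay close together on chromosome 2, both nearest to the coding start of Sqor, a mitochondrial sulfide oxidase. Of that pair, chr2:123023246-123025593 held 31.0, 30.1 and 31.3 CPM in EE and 23.8, 20.1 and 20.4 in SH, and chr2:122968250-122969561 held 19.7, 20.7 and 20.6 against 15.8, 12.9 and 11.6. In all 4 the log2 fold change was between 0.52 and 0.60.

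**Figure D2:**
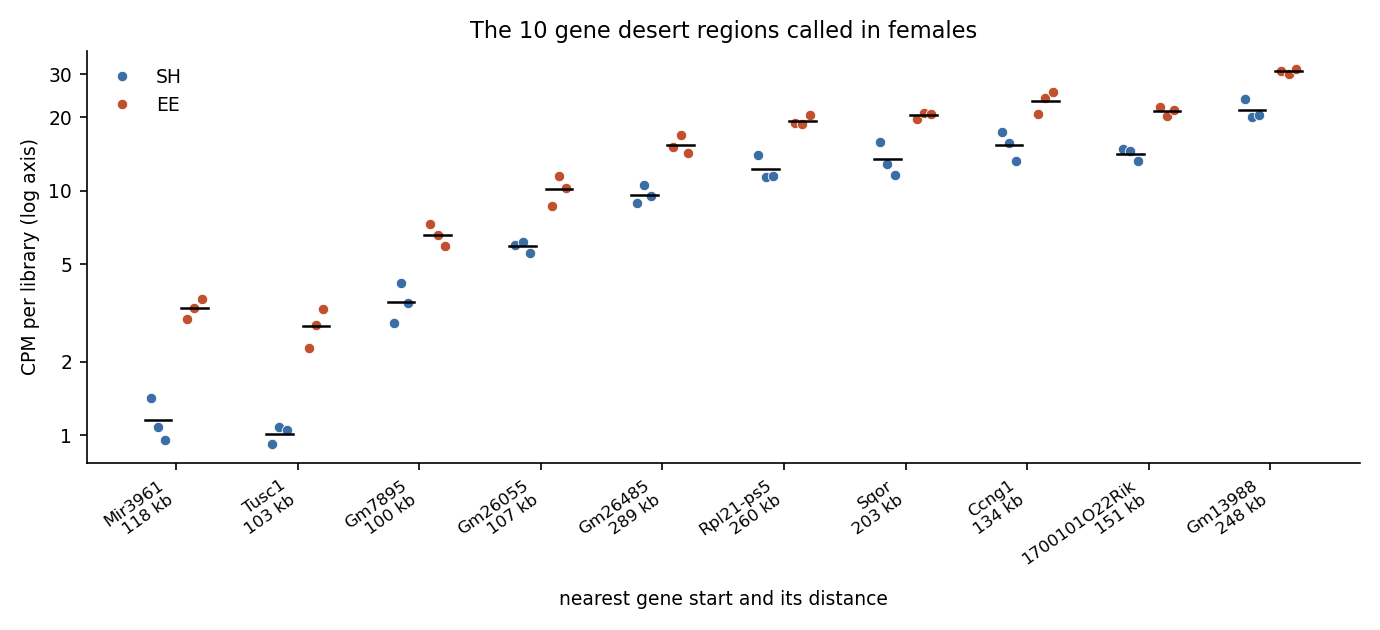
CPM per female ATAC library (log axis) in the 10 desert regions called at an adjusted p under 0.05, ordered by fold change and named by the nearest gene start with its distance in kb. Points are libraries (3 EE and 3 SH per region) and black bars are means; no EE library overlaps an SH library in any of the 10.

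The calls were sensitive to single libraries, and each of the 10 was lost when at least 1 library was left out. Leaving out EE replicates 1, 2 and 3 in turn gave 17, 1 and 3 called desert regions, and leaving out SH replicates 1, 2 and 3 gave 36, 0 and 1. Calls over the whole table moved too, to 166, 26 and 24 without an EE library and 333, 22 and 28 without an SH library. Every desert region called in these 6 fits was higher in EE. In the lower direction, the smallest p was at chr15:71243526-71243919, 484 kb from Fam135b, with 2.82, 4.95 and 3.84 CPM in EE and 7.00, 5.44 and 6.41 in SH, a log2 fold change of -0.70 ± 0.20 with an adjusted p of 0.191. The next lower regions were chr2:74463470-74463670 near 4930445N08Rik (adjusted p = 0.273) and chr15:97415092-97415318, 168 kb from the adhesion gene Amigo2 (adjusted p = 0.436).

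The shift in females covered the class, not a few regions. The median log2 fold change of the 4731 desert regions was 0.19, against -0.01 over all 164926 regions, and 75.9% of them were above 0, against 48.3% of all. At an unadjusted p under 0.05 stood 783 desert regions (16.6%), 755 of them higher and 28 lower, where the whole table gave 8.01%. Every EE library was above every SH library in 814 desert regions (17.2%) and below in 78 (1.65%), against 6.46% and 6.3% of the table. Intergenic regions at 10 to 100 kb stood between, with 11.2% at that p, 11.5% above and 3.51% below. These counts describe the class: neighbouring regions and all regions of a library share its scaling, and no test was made over the list.

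The other region classes were ordered by distance from genes. Female medians were -0.06 at gene starts, -0.03 inside genes, 0.01 in intergenic regions under 10 kb from a start, 0.09 at 10 to 100 kb and 0.19 in deserts. The desert median was above that of those classes at every level of the region: it was 0.13 at an average log2 CPM under 0, 0.20 at 0 to 1, 0.21 at 1 to 2, 0.20 at 2 to 3 and 0.17 above 3. At gene starts the same levels gave -0.03, -0.08, -0.05, -0.05 and -0.06.

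**Figure D3:**
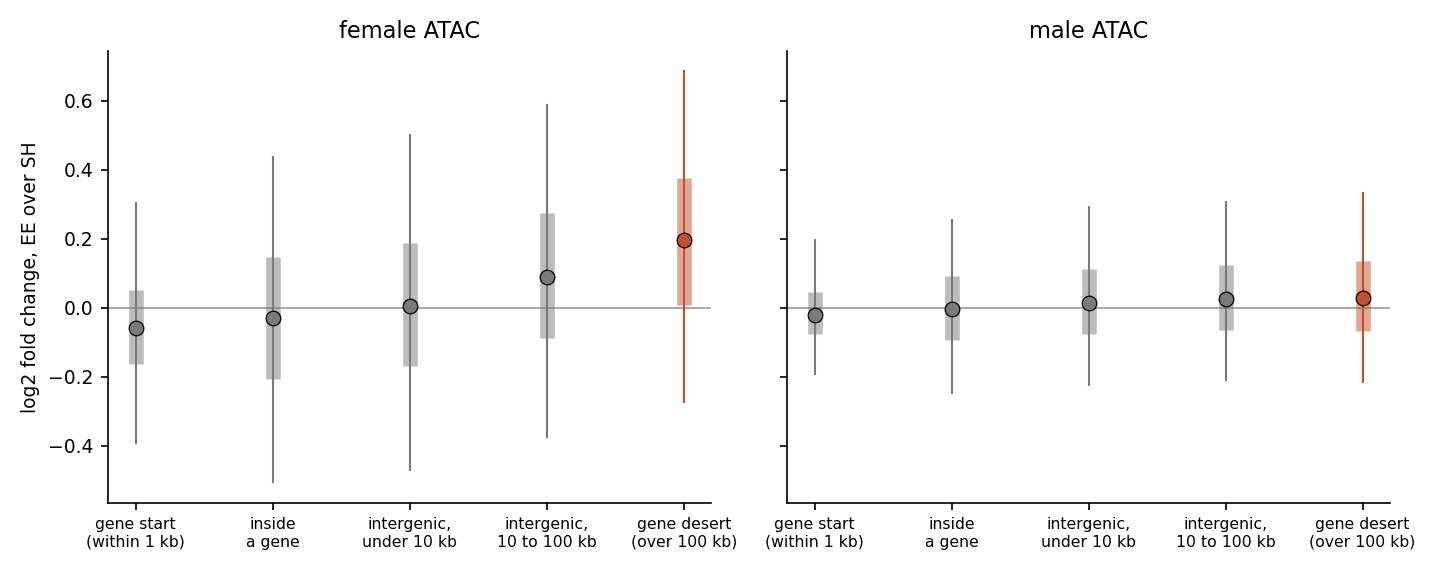
Log2 fold change (EE over SH) by region class in females (left) and males (right). Circles are medians, thick bars the middle 50% of regions and thin lines the 5th to 95th percentiles. Female medians climb from -0.06 at gene starts to 0.19 in deserts, and the male desert median is 0.03.

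The increase of the medians with distance levelled off at the edge of the deserts. Outside genes, female medians were 0.01 at 1 to 10 kb, 0.07 at 10 to 50 kb, 0.14 at 50 to 100 kb, 0.20 at 100 to 150 kb, 0.20 at 150 to 200 kb, 0.18 at 200 to 300 kb and 0.21 in both bins beyond 300 kb. On the 2 sides of the 100 kb limit the medians were alike, 0.18 for the 811 regions at 90 to 100 kb and 0.18 for the 668 at 100 to 110 kb, so the limit marks no step. Regions inside genes but as far from a start had lower medians, 0.01 at 100 to 150 kb, 0.03 at 150 to 200 kb, 0.05 at 200 to 300 kb, and 0.09 and 0.10 in the bins beyond 300 kb (363 and 62 regions). Desert regions that RefSeq places inside a protein-coding gene also had a low median, 0.05 (174 regions), against 0.20 for the 4144 in no RefSeq gene.

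**Figure D4:**
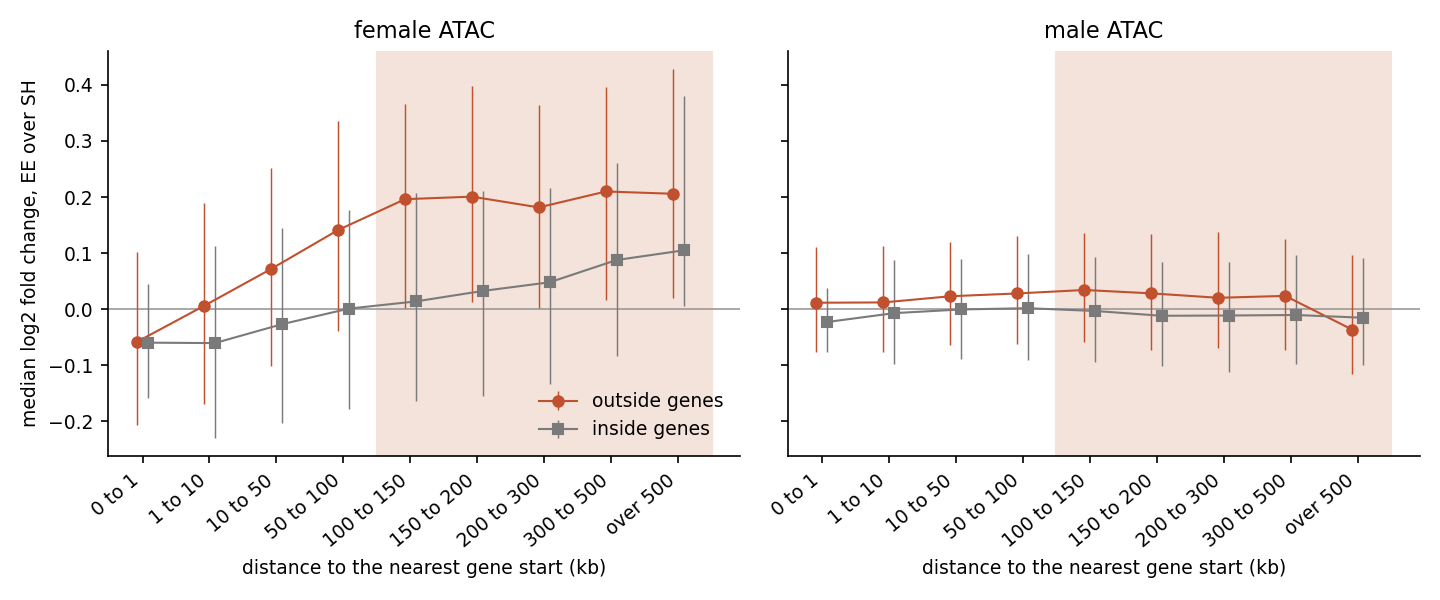
Median log2 fold change (EE over SH) against distance to the nearest gene start for autosomal regions under 3 kb wide, outside genes (circles) and inside genes (squares); bars span the middle 50% of regions and the shaded bins are the desert distances. In females the medians outside genes rise to 0.20 at 100 to 150 kb and stay near it, while those inside genes are lower in every bin and reach 0.10 in the farthest; male medians outside genes lie between -0.04 and 0.03.

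Most gene-free stretches had a median above 0 in females. Of the 332 stretches with at least 5 female desert regions tested, 303 (91.3%) did, with medians from -0.28 to 0.54. With 75.9% of all female desert regions above 0 in the same libraries, most such medians would be above 0 in any case. The 91.3% is therefore no separate evidence for single stretches. The stretches with the most regions were unlike each other. The stretch on chromosome 16 between 1700123O21Rik and Rbfox1 (58 regions) had a median of 0.06 with 32 above 0. RefSeq places these 58 regions inside Rbfox1 itself, so this stretch is free of genes only by the spans of the RNA table. The stretch on chromosome 15 between Prickle1 and Adamts20 (36 regions) had a median of -0.01 with 18 above 0. By contrast, the stretch on chromosome 18 between Fbxo15 and Gm25453 (47 regions) had a median of 0.30 with 40 above 0, and that on chromosome 8 between Gm22223 and Gm24602 (31 regions) had 0.33 with 29 above 0. Chromosome 15 had the lowest female median (0.06) and chromosome 10 the highest (0.29).

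Other values moved with housing in the same female libraries. Open regions at the starts of 8 neuronal markers summed to 399.5 to 411.6 CPM in EE and 425.0 to 459.5 in SH, and those of 3 oligodendrocyte markers to 30.2 to 35.5 in EE and 38.4 to 39.8 in SH. Those of 5 astrocyte markers held 17.7 to 20.5 CPM in EE and 20.4 to 23.7 in SH. The mean sums were thus lower in EE for all 3 cell types, with overlapping libraries for astrocytes and 0 regions called. All these regions lie within 1 kb of a gene start, and female regions at gene starts had a median log2 fold change of -0.06, with 34.8% above 0. The part of these sums in the desert difference was not tested. In these bulk libraries, fewer cells of a type and less signal per cell cannot be told apart.

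In males no desert region was called. With 6 EE and 7 SH libraries, edgeR called 0 of 7628 desert regions and 0 of all 192834 regions tested (0% higher and 0% lower), DESeq2 and limma voom also called 0 desert regions, and 5 desert regions did not pass the filter. At an unadjusted p under 0.05 stood 471 desert regions (6.17%; 343 higher, 128 lower), against 4.54% of all male regions. The median log2 fold change of male desert regions was 0.03, against -0.00 over all regions, with 57.3% above 0. Intergenic regions at 10 to 100 kb had a median of 0.02, and regions at gene starts had -0.02.

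The male desert median was lower at higher levels, as was that of intergenic regions at 10 to 100 kb. In deserts it was 0.08 at an average log2 CPM under 0, 0.06 at 0 to 1, 0.03 at 1 to 2, 0.01 at 2 to 3 and -0.02 above 3. In those intergenic regions the same levels gave 0.07, 0.05, 0.03, 0.01 and -0.01. Of 525 stretches with at least 5 male desert regions tested, 344 (65.5%) had a median above 0. In the chromosome 18 stretch between Fbxo15 and Gm25453, 12 of 48 male regions were above 0 (median -0.08), and in the chromosome 8 stretch between Gm22223 and Gm24602 30 of 49 were (median 0.06).

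The male desert region with the smallest p was at chr2:138140508-138141335, 115 kb from Btbd3, which orients dendrites toward active axons, with 2.85 to 4.24 CPM in EE (median 3.37 CPM) and 1.83 to 2.89 in SH (median 2.36). Its log2 fold change was 0.60 ± 0.12, and its adjusted p was 0.698. The next were chr16:39146874-39147463, 254 kb from the synaptic adhesion gene Igsf11 (1.46 to 3.14 CPM in EE, 0.915 to 1.35 in SH, adjusted p = 0.698), and chr10:124602878-124603602, 786 kb from the monocarboxylate transporter gene Slc16a7 (adjusted p = 0.801). In the lower direction stood chr19:59695774-59696116, 237 kb from the cortical patterning gene Emx2, with 0.514 to 0.822 CPM in EE (median 0.758) and 0.937 to 1.60 in SH (median 1.10; adjusted p = 0.896). The groups did not overlap at the Igsf11 and Emx2 regions and overlapped narrowly at Btbd3, and none of these differences passed the test. The other 2 lower regions were chr19:15512350-15513714, 434 kb from Psat1, a serine synthesis gene, and chr11:56647239-56647917, 363 kb from Gria1, a glutamate receptor subunit (adjusted p = 1.00 for both).

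The female and male region sets shared part of their deserts. With a reciprocal overlap of at least 50%, 1509 of 4760 female desert regions (31.7%) had a partner among all male regions and 1488 of 7633 male ones (19.5%) a partner among all female regions. The shares over all regions of the tables were 30.2% and 25.9%. With any overlap of 1 base the desert shares were 89.7% and 49.1%.

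Partner regions had different medians in the sexes. Over the 1486 matched regions that are deserts in both tables and were tested in every fit, the median log2 fold change was 0.18 in females and 0.00 in males. As a description across regions, the correlation of female and male values was near 0 (Pearson r = -0.03, Spearman coefficient = -0.02), where the points share libraries within each sex. Both sexes were above 0 in 567 regions, both below in 168, only females above in 573 and only males above in 178. The sex by housing interaction, tested by edgeR over all 49878 matched regions, called 0 desert regions and 0% of all matched regions. DESeq2 called 1 desert region, and 15 over all matched regions. At an unadjusted p under 0.05 stood 229 of the 1486 (15.4%), 213 of them with the higher value in females, against 7.19% of all matched regions. The median difference, female minus male, was 0.17 for these desert regions and 0.00 for all matched regions.

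**Figure D5:**
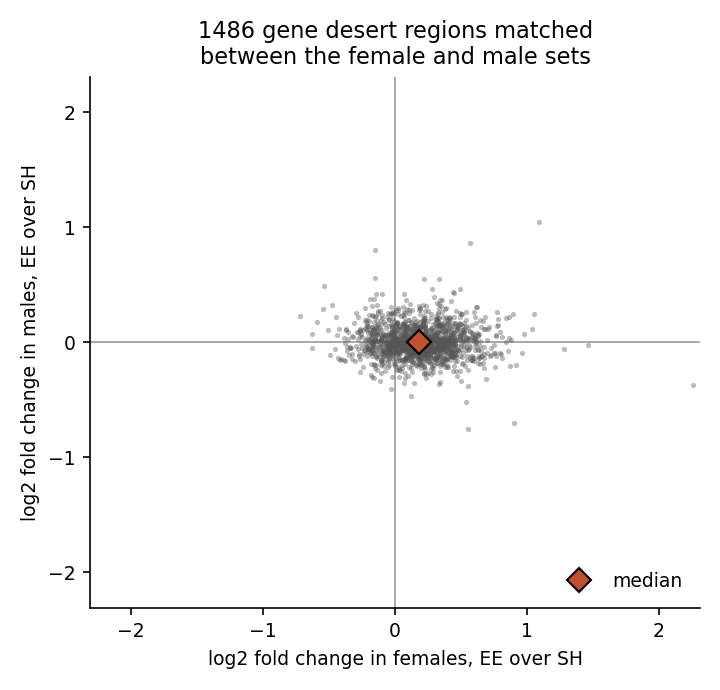
Log2 fold change (EE over SH) in females (x axis) against males (y axis) for the 1486 desert regions matched between the sets; points are regions and the diamond is the median. The cloud is shifted to the right (median 0.18 in females) and centred on 0 in males (median 0.00); Pearson r is -0.03.

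All 10 regions called in females overlapped a male region, and none was called there. The male log2 fold changes ran from -0.12 to 0.15, with 5 above 0, and the lowest unadjusted p was 0.174. At the region near Mef2c the male value was 0.06 ± 0.12, where the female value was 1.52 ± 0.28. The interaction could be tested for 6 of the 10, with differences of 0.49 to 1.48 (female minus male) and adjusted p-values from 0.309 to 0.504.

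Desert regions were then grouped by the nearest protein-coding start. In each list below, the start of another gene was nearer to most of the regions. Classical and type II cadherins, which hold neurons together across synapses, were the nearest coding start of 146 female desert regions. For 10 of the 146 a cadherin start was also the nearest of any gene. Of the 146, 122 were above 0 and 36 at an unadjusted p under 0.05, with a median log2 fold change of 0.24 and 0 called. Over all female desert regions, 75.9% were above 0 and 16.6% were at that p. Cdh11 was nearest to 36 (median 0.34, range -0.22 to 0.98, 34 above 0). These include the 31 regions of the chromosome 8 stretch between Gm22223 and Gm24602 given above, so they are no separate observation. The endothelial cadherin Cdh5 was nearest to 20 (median 0.13, 15 above 0), the neural cadherin gene Cdh2 to 17 (median 0.16, 13 above 0) and Cdh8 to 17 (median 0.26, 16 above 0). In males the 249 cadherin regions had a median of 0.00, with 129 above 0 and 0 called. Cdh11 itself had 60 male regions with a median of 0.05.

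Non-clustered protocadherins, another adhesion family, were the nearest coding start of 39 female regions and the nearest start of any gene for 0 of them. Of the 39, 38 were tested (32 above 0, median 0.25, 0 called). All 11 regions nearest to Pcdh17, all 9 nearest to Pcdh20 and all 5 nearest to Pcdh7 were above 0, and 4 of 6 nearest to Pcdh9 were (median 0.07). Leucine-rich repeat adhesion genes, which organise synapses, had 61 female regions tested, with a median of 0.27, 49 above 0 and 1 called, the Flrt2 region. Their male medians were 0.09 over 79 regions and 0.07 over 138, with 0 called. Over all female desert regions tested, 75.9% were above 0 and 0.211% were called.

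Guidance receptors and ligands had 167 female regions with a median of 0.21 (130 above 0, 0 called) and 319 male regions tested with a median of 0.03. Robo1 was nearest to 27 female regions (median 0.18) and 65 male ones (median 0.01), and Efna5, an ephrin ligand, to 17 and 28 (medians 0.19 and 0.03). These groups use the gene starts of the RNA counts, by which Robo2 was nearest to 15 and 26. RefSeq places 22 female and 52 male desert regions inside Robo1, and 39 and 56 inside Robo2, so its grouping would differ. Transcription factors of the developing cortex had 187 female regions tested with a median of 0.17, 142 above 0 and 1 called, the Mef2c region. The male median of that list was 0.02. Of 30 genes induced by neuronal activity, 4 were a nearest coding start, to 14 female regions with a median of 0.08 and 18 male regions with a median of -0.01. These medians stand beside 0.19 and 0.03 over all desert regions, and the female counts beside shares of 75.9% above 0 and 0.211% called.

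Nuclear RNA of the genes at the desert edges was the other readout. Of 1402 genes whose start was nearest to a female desert region, 309 passed the RNA filter and 542 had 0 counts in every female RNA library. In males 356 of 1717 passed. The edgeR test called 0 of the 309 in females, where 0% of 14587 genes were called, and 0 of the 356 in males, where 0.0411% of 14597 were called. DESeq2 called 12 of these genes in females and 3 in males, where it called 121 and 49 over all genes. At an unadjusted p under 0.05 stood 43 in females (13.9%) and 49 in males (13.8%), against 8.67% and 8.03% of all genes, and their median log2 fold changes were -0.03 and 0.02.

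Among these genes in females, Abi3bp, an extracellular matrix protein gene, had the smallest p. It held 118 to 196 CPM in EE (median 164) and 51.7 to 97.7 in SH (median 77.3), and the 6 EE libraries stood above all SH libraries. Its log2 fold change was 1.08 ± 0.17, with an adjusted p of 0.0976 by edgeR and 2.12e-06 by DESeq2. The summed RNA of 8 striatal projection neuron markers was 84.2 to 267 CPM in these EE libraries and 49.8 to 185 in SH libraries, and its part in the difference was not tested. Tll1, a metalloprotease gene, held 21.4 to 31.0 CPM in EE and 14.9 to 21.5 in SH (log2 fold change 0.49 ± 0.11). Klhl14, an adaptor of a ubiquitin ligase, held 3.40 to 7.23 CPM in EE and 1.93 to 4.58 in SH.

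Lower in female EE at the smallest p were a sorting receptor of synapses and a nuclear receptor. Sorcs3 held 326 to 409 CPM in EE and 369 to 457 in SH, with 5 of 6 EE libraries below all SH libraries. Thrb, the thyroid hormone receptor beta, held 660 to 762 in EE and 752 to 853 in SH. P3h2, a collagen prolyl hydroxylase gene, held 37.1 to 41.9 and 42.0 to 53.2 CPM, with no overlap. Adjusted p-values of the 5 genes after Abi3bp ran from 0.1198 for Tll1 to 0.187 for P3h2 by edgeR. DESeq2 called Tll1 (adjusted p = 0.00953), Thrb (0.00401), Sorcs3 (0.0114) and P3h2 (0.0418).

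In males the smallest p belonged to Kcnc2, a fast potassium channel of interneurons. It held 302 to 365 CPM in EE and 257 to 294 in SH, without overlap, a log2 fold change of 0.21 ± 0.05 with an adjusted p of 0.118 by edgeR and 0.00308 by DESeq2. Nr3c1, the glucocorticoid receptor, held 113 to 121 CPM in EE and 98.5 to 115 in SH (log2 fold change 0.17 ± 0.04, adjusted p = 0.196). Zmat4 held 357 to 403 and 306 to 365 CPM. Lower in male EE were Arhgap28, with 1.02 to 1.72 CPM against 2.25 to 2.84, and Trabd2b and Gria1, with adjusted p-values of 0.196, 0.370 and 0.593. None of these passed the edgeR test, and DESeq2 also called Nr3c1 and Zmat4.

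RNA of the coding genes beside the 10 female regions was measured where it was detected. Mef2c had 854 ± 74.8 CPM in female EE and 939 ± 80.9 in SH (SD, n = 6 each), with a log2 fold change of -0.14 ± 0.06 (adjusted p = 0.555). Flrt2 had 355 ± 32.2 and 354 ± 39.5 CPM, with a log2 fold change of 0.00 ± 0.07. Ccng1 had a log2 fold change of -0.33 ± 0.16 (adjusted p = 0.576), and Ythdf3 of -0.01 ± 0.07. The nearest start of any kind was tested in RNA for 2 of the 10 regions, and the other nearest genes, Tusc1 among them, were at 0 to 0.348 CPM in SH. No RNA difference was called at the nearest gene of any of the 10.

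The coding genes with the most desert regions around them, by the same gene starts, had no called RNA difference. Pik3c3, a lipid kinase of autophagy, was the nearest coding start for 75 female and 110 male desert regions, and its log2 fold changes in RNA were -0.10 ± 0.07 and -0.03 ± 0.05. Rbfox1, nearest for 59 and 63, had -0.07 ± 0.06 in females and 0.09 ± 0.05 in males. Timm21, a mitochondrial import gene, was nearest for 41 female regions, 37 of them above 0 (median 0.30), and had 3.09 ± 0.768 CPM of RNA in EE and 2.93 ± 0.482 in SH. Of the others with the most regions, Zfat and Gbe1 in females and Celf4, Robo1 and Cdh11 in males, no gene was called, with Gbe1 at the smallest unadjusted p (0.0254, adjusted p = 0.489).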

How the data were processed

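Counts per region or gene were used as deposited: the authors' tables hold raw counts per ATAC region, 1 region set per sex, and raw RNA counts per Ensembl gene (introns and exons both counted), per the labels. Per the submitters' processing notes, STAR 2.5.4, SAMtools 1.3.1, bedtools, MACS2 2.1.1, DiffBind 3.2.2, edgeR and DESeq2 1.16.1 were used with mm10; how regions were merged, any read shift for the transposase, duplicate filters and whether region starts count from 0 or 1 are details not given in the sources used here, so coordinates are as in the tables. No per-sample column was left unused.

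In edgeR 4.0.16 (R 4.3.3), tables were fitted separately with TMM scaling, the default low-count filter, a two-sided robust quasi-likelihood F test and Benjamini-Hochberg adjustment over all features tested. A positive log2 fold change is higher in EE, and SE is the absolute log2 fold change over the root of F. CPM use TMM-scaled totals unless stated. Genes were Ensembl IDs, 53274 of 53379 with a symbol, and biotypes came from RefSeq by symbol. Tables were matched between sexes with bedtools 2.31.1. DESeq2 1.42.0 and limma 3.58.1 served as alternatives. The scripts were tested on simulated data. The members, gene lists and tests were chosen with earlier results of these data known. Regions named are, per sex and direction, the called desert regions (up to 8 by p, here with the last 2 added after their values were seen), or the 3 with the smallest p, the 3 tallest per kb and the most remote, and RNA genes are the 3 with the smallest p per direction at an average log2 CPM of at least 1 without Gm and Rik symbols. The printed windows and the check against RefSeq gene spans were chosen after seeing the data. Region sequence and GC content need a genome and were not analysed here.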

Additional observations from a re-analysis of the deposited data

Results flagged for a closer look

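Within the groups of 6 or 7 libraries, 52 sets of values were searched for a single library far from the rest, and 3 were found; chance gives about 1 in 20. In male ATAC, EE replicate 1 held 3.237 CPM in the desert region at chr11:56647239, 363 kb from Gria1, while the other EE libraries held 2.463 to 2.593. In female RNA, EE replicate 1 held 408.9 CPM of Sorcs3, with the other EE libraries at 326.3 to 352.8. In male RNA, EE replicate 3 held 365.0 CPM of Kcnc2, with the others at 301.7 to 322.3.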

How the results depend on the processing

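In females the desert median stayed between 0.16 and 0.24 in every fit, leave-one-out fits included (0.156 to 0.242), and every desert region called in any fit was higher in EE. The number called was less stable: 16 with DESeq2, 2 with the replicate block, 20 among regions over 50 kb from a start, 4 over 200 kb, and 0 to 36 when 1 library was left out, against 8 to 11 with the other scalings and filters. Over the whole female table, DESeq2 called 122 regions, the replicate block 34 and the leave-one-out fits 22 to 333, against 78 in the main fit. Leaving out desert regions inside RefSeq gene spans, an alternative added after seeing the data, gave 9 calls and a median of 0.20. The EE minus SH difference in desert share of counts was 0.592 percentage points for regions over 50 kb and 0.0912 over 200 kb, which hold more and fewer counts, and 0.243 to 0.353 with 1 library left out. In males, 0 desert regions were called in every setting, and medians were 0.01 to 0.06 (0.0071 to 0.0583 with 1 library left out); the share difference was -0.0023 to 0.0978. The interaction called 1 desert region with DESeq2 and 0 in the other settings, leave-one-out fits (0 to 0) included. For nearest genes, female RNA gave 12 calls with DESeq2, 15 without the low-count filter (860 nearest genes tested) and 8 with the replicate block. It gave 4 without EE replicate 1 and 7 without SH replicate 2 (0 to 7 over all libraries). Over all female genes the same fits called 121, 168, 95, 13 and 85. Male RNA gave 3 with DESeq2, 12 without the filter (1149 nearest genes tested) and 0 to 0 with 1 library left out. Over all male genes, DESeq2 called 49 and the fit without the filter 136. The cause of these changes was not tested. With any overlap of 1 base, 89.706% of female and 49.063% of male desert regions had a partner. Numbers shared between EE and SH libraries did not pair them: correlations of same-numbered deviations ran from -0.07 to 0.07 in female ATAC, -0.10 to 0.17 in male ATAC, 0.04 to 0.31 in female RNA and -0.03 to 0.23 in male RNA, and 1 of 3, 2 of 6, 3 of 6 and 2 of 6 pairs correlated best with their own number. The median female desert region held 68 reads per library, which limits the precision of single regions.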
